A study of Homo sapiens with 10 samples.

Results

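Gene expression 2 h after cross-linking of the receptor CD64 was compared with that of control cells in U937, an established human monocytic line derived from a histiocytic lymphoma. The comparison took the 2 arrays titled as CD64 at 2 h, here called the first array and the duplicate, and the 2 control arrays, 4 of the 10 arrays of the series. All cells, controls included, had been differentiated with IFN gamma, so every change is a change on top of an interferon-induced state. No cross-linking and no time were listed for the control, and the labels did not name the cross-linking reagent or an antibody control. The other arrays used here for reference were 2 of CD32 cross-linked for 2 h and 2 of CD64 cross-linked for 6 h, and the remaining 2, of CD32 at 6 h, entered only the filter on low signals and the estimate of the spread. The labels did not say whether duplicates were separate cultures, so p-values measure the spread between these arrays, which may be technical. All cells came from 1 line, and fewer cells of a kind and less RNA per cell cannot be told apart.

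CD64 is Fc gamma RI, the high-affinity receptor for IgG on monocytes and macrophages, and IFN gamma is a known inducer of it. Its own tail carries no activation motif, and it pairs with the common gamma chain encoded by FCER1G, whose activation motif is phosphorylated by SRC-family kinases when receptors are clustered and then recruits the kinase SYK. The pathway leads through phosphoinositide, calcium and MAP kinase signals to phagocytosis, the oxidative burst and the making of chemokines and cytokines, and CD32, or Fc gamma RII, is the low-affinity receptor, with activating and inhibitory forms.

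The values were linear signals, 1 per probe set and array, and the number of arrays limits their precision. The trimmed mean signal was 499.9 on each of the 4 arrays, and signals under a floor of 37.5 were set to it. The median signal was 152.4 and 112.2 on control 1 and control 2 and 113.6 and 100.7 on the first CD64 array and its duplicate, and the share of probe sets that did not exceed the floor was 20.2% to 29.8%. The Pearson correlation of log2 signals across probe sets was 0.9676 between the controls and 0.9793 between the CD64 arrays. With the first CD64 array and its duplicate it was 0.9557 and 0.9499 for control 1 and 0.9616 and 0.9657 for control 2. Spike-in probe sets had a mean log2 signal of 10.64 in the control and 10.87 in the CD64 group, and the signal ratio of the 3' to the 5' actin probe set was 1.31 and 1.81. The part of these differences in the results below was not tested.

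Of 39 tested markers of monocytes and macrophages 25 exceeded the floor on all 4 arrays, and 3, CD14, LILRB1 and TREM2, lay under it on all 4. ITGAM, an integrin chain of myeloid cells, gave 482 and 481 on the control arrays and 368 and 381 on the CD64 arrays, whereas CD14, the lipopolysaccharide co-receptor of mature monocytes, gave 9.4 and 4.1 in the control and 13.1 and 9.2 after CD64. The summed signal of the 39 genes was 25453 and 25869 in the control and 22831 and 24562 after CD64. Summed signals were 449.7 to 677 and 392 to 406 for 9 T cell markers, 343 to 610 and 222 to 329 for 5 B cell markers, 445 to 638 and 300.1 to 488 for 9 stromal markers and 614 to 984 and 843 to 1043 for 8 erythroid markers. The 10 natural killer cell markers summed to 2719 to 3081 and 1877 to 2018, most of it NKG7, a granule membrane protein also found in myeloid cells, which fell from 2109.8 and 2188 to 1471 and 1409 (log2 change -0.58, limma adjusted p = 0.0012). Their part in the results was not tested.

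Within 2 h of CD64 cross-linking the neutrophil chemokines CXCL8 and CXCL2, the monocyte chemokine CCL2, the splicing factor SFPQ, the receptor TNFRSF12A and the cell cycle phosphatase CDC25A were among the largest rises. Many genes of cholesterol synthesis and glycolysis, some granule proteins, interferon regulatory factors and several transcription factors of immature myeloid cells fell. Of 7708 probe sets tested with limma, 1224 (15.9%) were called at an adjusted p under 0.05, 589 (7.64%) upward and 635 (8.24%) downward, and 381 (4.94%) were called with a change over 2-fold, 174 upward and 207 downward. The called probe sets stood for 1080 genes, 535 upward and 545 downward. The shares of all probe sets, 7.64% upward and 8.24% downward, are the background for each list count below. The median log2 change over all probe sets tested was -0.13, and the central 80% lay between -0.82 and 0.51. The CD64 arrays did not overlap the control arrays in any called probe set, nor in 51.7% of all probe sets tested, so with 2 arrays a group the absence of overlap given for single genes below is a description and adds no evidence to the test.

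**Figure D1:**
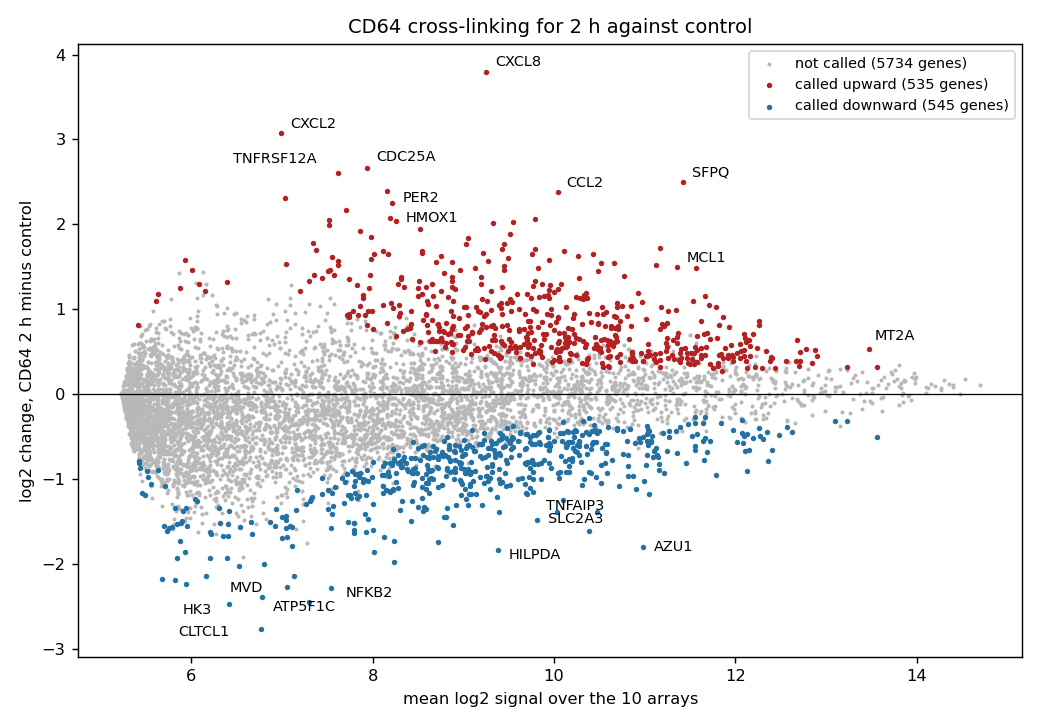
Each point is 1 of 6814 genes, with the mean log2 signal over the 10 arrays on the x axis and the log2 change from control to CD64 at 2 h on the y axis. The 535 genes called upward and 545 called downward are coloured, the other 5734 are grey, and the highest points are CXCL8 at 3.80 and CXCL2 at 3.08.

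The count of calls depended on each array. It was 741 without control 1, 988 without control 2, 642 without the first CD64 array and 711 without the CD64 duplicate, 725 without the trend of the variance on the level, and 767 in a fit on the 4 arrays alone, which tested 6836 probe sets. In a fit on the 4 arrays that kept all 7708 probe sets, an alternative chosen after seeing the data, limma called 0, with 1750 at an unadjusted p under 0.05, so no call against control stood in it. Each gene named below as changed kept its call and direction against control under the 13 other alternatives, among them each of the 4 arrays left out, unless its paragraph says otherwise. Where the mean of the lower group lay at or under the floor, a fold is given as "at least", which applied to 13 probe sets called upward and 40 called downward.

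Of 5 tested genes for Fc receptors and their signalling chain, 1 was called (median log2 change -0.15). No value is given for FCGR1A, which encodes CD64, because its probe set also carries related symbols. FCER1G, the signalling chain of CD64, gave 3008 and 3204 on the control arrays and 2734 and 2859.6 on the CD64 arrays (log2 change -0.15, limma adjusted p = 0.31). FCGR2A, the activating form of CD32, gave 652 and 682 in the control and 616 and 596 after CD64 (log2 change -0.14, limma adjusted p = 0.56), and FCGR2B, the inhibitory form, whose near-identical copy FCGR2C may share its signal, gave 411 and 438 in the control and 476 and 463 after CD64 (log2 change 0.15, limma adjusted p = 0.51). None of these 3 was called, and for FCGR2B the CD64 arrays lay above both controls. FCGR3B, of the neutrophil receptor CD16, gave 144 and 37.9 in the control and 53.2 and 80.6 after CD64 and was not called. FCGRT, the receptor that recycles IgG, fell from 748 and 547 to 373 and 286 (log2 change -0.97, SE 0.18, limma adjusted p = 0.0046), both CD64 arrays below both controls. Its call was lost without control 1 (adjusted p = 0.05004).

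Below the receptor, 4 (9.1%) of 44 tested signalling genes were called upward and 5 (11.4%) downward, not far from the 7.64% and 8.24% of all probe sets. Their median log2 change was -0.25, -0.15 with quantile scaling and -0.12 with loess scaling. LAT, a scaffold adaptor (log2 change 0.98), and PTPRC, the CD45 phosphatase that activates SRC-family kinases (0.66), rose. WAS, which nucleates actin in the phagocytic cup (-0.74), and PRKCB, a protein kinase C (-0.78), fell. CRKL, an SH2 adaptor (-1.57), and INPP5D, the inositol phosphatase SHIP1 that limits Fc receptor signals (-0.84), were also called downward, but the call was lost for CRKL under 3 of the 13 alternatives (adjusted p = 0.0518 to 0.098), among them without control 1 (0.098), without the first CD64 array (0.0518) and without the CD64 duplicate (0.076), and for INPP5D without control 1 (adjusted p = 0.059) and without the first CD64 array (adjusted p = 0.0524). SYK gave 227 and 200.5 in the control and 149 and 102 after CD64 and was not called (log2 change -0.79, limma adjusted p = 0.10), although both CD64 arrays lay below both controls. Among these 44 genes the number called upward was 2 without control 1, the first CD64 array, the CD64 duplicate or the variance trend, and that called downward was 3 without control 1, the first CD64 array or the CD64 duplicate.

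Immediate early genes, which growth and immune signals induce without new protein synthesis, were called upward more often than downward, 13 against 4 of 41 tested, with a median log2 change of 0.13. SRF, the serum response factor that drives many of them, gave 153 and 109 on the control arrays and 415 and 365 on the CD64 arrays (log2 change 1.59, SE 0.26, limma adjusted p = 0.0023). JUND, an AP-1 subunit, gave 649 and 646 in the control and 1386 and 1516 after CD64 (log2 change 1.16, SE 0.09, limma adjusted p = 4.2e-05). For both genes each CD64 array lay above both controls. ID2, an inhibitor of helix-loop-helix factors (1.65), the kinase SGK1 (1.49), the zinc finger repressor KLF10 (1.46) and the stress gene IER3 (1.33) also rose on the log2 scale, and KLF6, a factor of the same family (-1.68), and the kinase PIM1 (-0.93) fell. EGR1, the classic early zinc finger factor, rose by 1.46, but its call was lost in the fit on the 4 arrays alone (adjusted p = 0.074) and without the CD64 duplicate (adjusted p = 0.088). FOS, an AP-1 subunit, gave 192 and 128 in the control and 293 and 251 after CD64 and missed the threshold (log2 change 0.79, limma adjusted p = 0.078). Of the 41 genes the number called upward was 7 in the fit on the 4 arrays alone, and that called downward was 2 without the first CD64 array or the variance trend.

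The dual-specificity phosphatases and sprouty proteins, only some of which switch MAP kinases off, had 6 of 13 tested members called upward and 1 downward (median log2 change 0.26). DUSP6, the phosphatase of ERK, rose by 1.27 and SPRY2, an inhibitor of receptor tyrosine kinase signals, by 0.92. The other upward calls were DUSP12 (1.05), DUSP14 (0.74), DUSP5 (0.70) and DUSP11 (0.545). Each of these was lost with no filter, without the variance trend and in the fit on the 4 arrays alone, among other alternatives. DUSP3, which acts on ERK and JNK, fell from 842 and 1047 to 348 and 340.1 (log2 change -1.45, SE 0.17, limma adjusted p = 0.00035), with both CD64 arrays far below both controls. The call was lost for DUSP6 in the fit on the 4 arrays alone (adjusted p = 0.058) and without the first CD64 array (adjusted p = 0.067), and for SPRY2 under 5 of the 13 alternatives (adjusted p = 0.05038 to 0.12), among them without control 1 (0.10) and without the first CD64 array (0.12). The number called upward was 3 without control 1, 0 without the first CD64 array, 2 without the CD64 duplicate, 1 without the variance trend and 0 to 1 under 2 other alternatives, and that called downward was 2 with a pseudocount in place of the floor. The list's median was 0.43 without control 1, 0.09 without control 2, 0.13 without the CD64 duplicate, 0.59 with quantile scaling and 0.48 with loess scaling.

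Of 21 tested genes of the NF-kappaB system 3 were called upward and 2 downward (median log2 change -0.10). NFKB2, which encodes the p100 precursor of the non-canonical pathway, gave 297 and 336 on the control arrays and 108 and 39.3 on the CD64 arrays, a 4.86-fold fall (log2 change -2.28, SE 0.43, limma adjusted p = 0.0048). Its CD64 duplicate lay just above the floor of 37.5 and well below the first CD64 array, so the size of this fall is imprecise. TNFAIP3, the ubiquitin-editing inhibitor A20, fell from 1606 and 1362 to 724 and 682 (log2 change -1.07, SE 0.11, limma adjusted p = 0.00015). The CD64 arrays did not overlap the controls in either gene. NFKBIA, the inhibitor I kappa B alpha, gave 645 and 540.5 in the control and 686 and 644 after CD64 and was not called (log2 change 0.17, limma adjusted p = 0.48). CHUK, the kinase IKK alpha, was called upward at 1.41, and its call was lost without the first CD64 array (adjusted p = 0.058) and without the CD64 duplicate (adjusted p = 0.067). Across alternatives the number called upward was 1 without control 2, the CD64 duplicate or the variance trend, 0 without the first CD64 array and 1 with no filter.

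Chemokines held the largest rise. CXCL8, the neutrophil attractant interleukin 8, gave 198 and 151 on the control arrays and 2347 and 2456 on the CD64 arrays. The CD64 arrays lay close together and stood far above both controls, a 13.9-fold rise (log2 change 3.80, SE 0.15, limma adjusted p = 1.4e-07). CXCL2, a second ligand of the receptor CXCR2, gave 19.3 and 58.3 in the control and 437 and 355 after CD64. 1 control array lay under the floor, so its fitted log2 change of 3.08 (SE 0.40, limma adjusted p = 0.00057) depends on that floor, but both CD64 arrays lay well above both controls. CCL2, the monocyte attractant MCP-1, rose 5.21-fold from 148 and 156 to 802 and 779.5 (log2 change 2.38, SE 0.15, limma adjusted p = 1.1e-05), again without overlap.

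Only CXCL8 and CXCL2 were called among 8 tested neutrophil-type CXC chemokines, whose median log2 change was 0.47, 0.07 without the first CD64 array and 0.72 with loess scaling. CXCL1 gave 39.8 and 37.3 on the control arrays and 88.6 and 28.7 on the CD64 arrays, and CXCL3 gave 58.4 and 20.6 in the control and 78.9 and 51.3 after CD64. In both genes the CD64 arrays overlapped the controls near the floor, and neither was called (log2 change 0.58 and 0.44, limma adjusted p = 0.41 and 0.58). CXCL1, CXCL2 and CXCL3 are close in sequence, so their probe sets may share signal. CXCL5 gave 19.3 and 15.1 in the control and 4.5 and 3.7 after CD64, CXCL6 69.2 and 15.3 in the control and 80 and 48.7 after CD64, PF4 26.9 and 60.7 in the control and 28.2 and 121 after CD64 and PPBP 37.5 and 14.6 in the control and 48.3 and 7.9 after CD64, and none was called. Of 11 tested CC chemokines only CCL2 was called (median log2 change 0.34, but 0.61 without control 1, -0.13 without control 2, 0.00 without the first CD64 array, 0.64 with quantile scaling and 0.63 with loess scaling), and the number called upward was 2 without control 1, and that called downward was 1 with loess scaling.

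The promoters of 3 genes are shown because CXCL8 and CXCL2 rose while TNFAIP3, another known target of NF-kappaB, fell. Each sequence is the 250 bases before the RefSeq gene start on the gene's strand in build GRCh38.p14, 5′ to 3′, at chr4:73740319-73740568 (plus strand) for CXCL8, chr4:74099196-74099445 (minus strand) for CXCL2 and chr6:137867009-137867258 (plus strand) for TNFAIP3. Capitals mark every match, on either strand, to the NF-kappaB motif GGNNNTTCC or the AP-1 motif TGANTCA.
CXCL8: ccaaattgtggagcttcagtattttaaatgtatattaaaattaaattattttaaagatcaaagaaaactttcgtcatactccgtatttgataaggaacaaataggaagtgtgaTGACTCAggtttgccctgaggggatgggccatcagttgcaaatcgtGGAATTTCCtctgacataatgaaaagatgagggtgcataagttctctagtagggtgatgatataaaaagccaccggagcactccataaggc
CXCL2: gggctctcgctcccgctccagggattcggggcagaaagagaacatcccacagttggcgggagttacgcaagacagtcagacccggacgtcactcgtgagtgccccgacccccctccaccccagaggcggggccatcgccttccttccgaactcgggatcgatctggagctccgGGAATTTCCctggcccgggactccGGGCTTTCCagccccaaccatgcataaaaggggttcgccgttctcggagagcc
TNFAIP3: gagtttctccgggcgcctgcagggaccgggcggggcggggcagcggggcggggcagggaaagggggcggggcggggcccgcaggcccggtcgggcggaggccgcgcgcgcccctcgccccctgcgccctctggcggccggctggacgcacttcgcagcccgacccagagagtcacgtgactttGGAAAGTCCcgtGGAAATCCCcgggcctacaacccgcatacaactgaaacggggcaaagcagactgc
CXCL8 held 1 NF-kappaB match 91 to 83 bases before the start and 1 AP-1 match 137 to 131 bases before it. CXCL2 held NF-kappaB matches at 77 to 69 and 53 to 45 bases, and TNFAIP3 at 67 to 59 and 55 to 47 bases. The letters of this motif stood close to the start in genes that moved in opposite directions. RefSeq windows were found for 5547 of the 6814 genes tested. The NF-kappaB motif lay in 24.1% of the windows of genes called upward, 18% of those called downward, 19.2% of all tested and 17.1% of all 27305 windows of the table, and in 6 of 7 windows of the neutrophil-type CXC chemokines. The AP-1 motif lay in 3.8%, 4.8%, 5.3% and 6.6% of the same windows. A match is a run of letters and not a measured site.

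Of 23 tested cytokines other than chemokines none was called upward and 3 were called downward (median log2 change -0.36). TGFB1, an anti-inflammatory cytokine, gave 1876 and 2076 on the control arrays and 690.5 and 818 on the CD64 arrays, a 2.63-fold fall (log2 change -1.39, SE 0.13, limma adjusted p = 7e-05). IL1B, the inflammasome substrate interleukin 1 beta, fell from 532 and 687 to 253 and 275 (log2 change -1.19, SE 0.15, limma adjusted p = 0.00051). Both CD64 arrays lay below both controls for each gene. TNF gave 21.6 and 47 in the control and 79.4 and 76.8 after CD64 and was not called (limma adjusted p = 0.28). The number of cytokines called upward was 1 without control 2, and that called downward was 6 without control 2 and 5 with quantile scaling. Their median was -0.23 without the CD64 duplicate and -0.17 with quantile scaling.

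**Figure D2:**
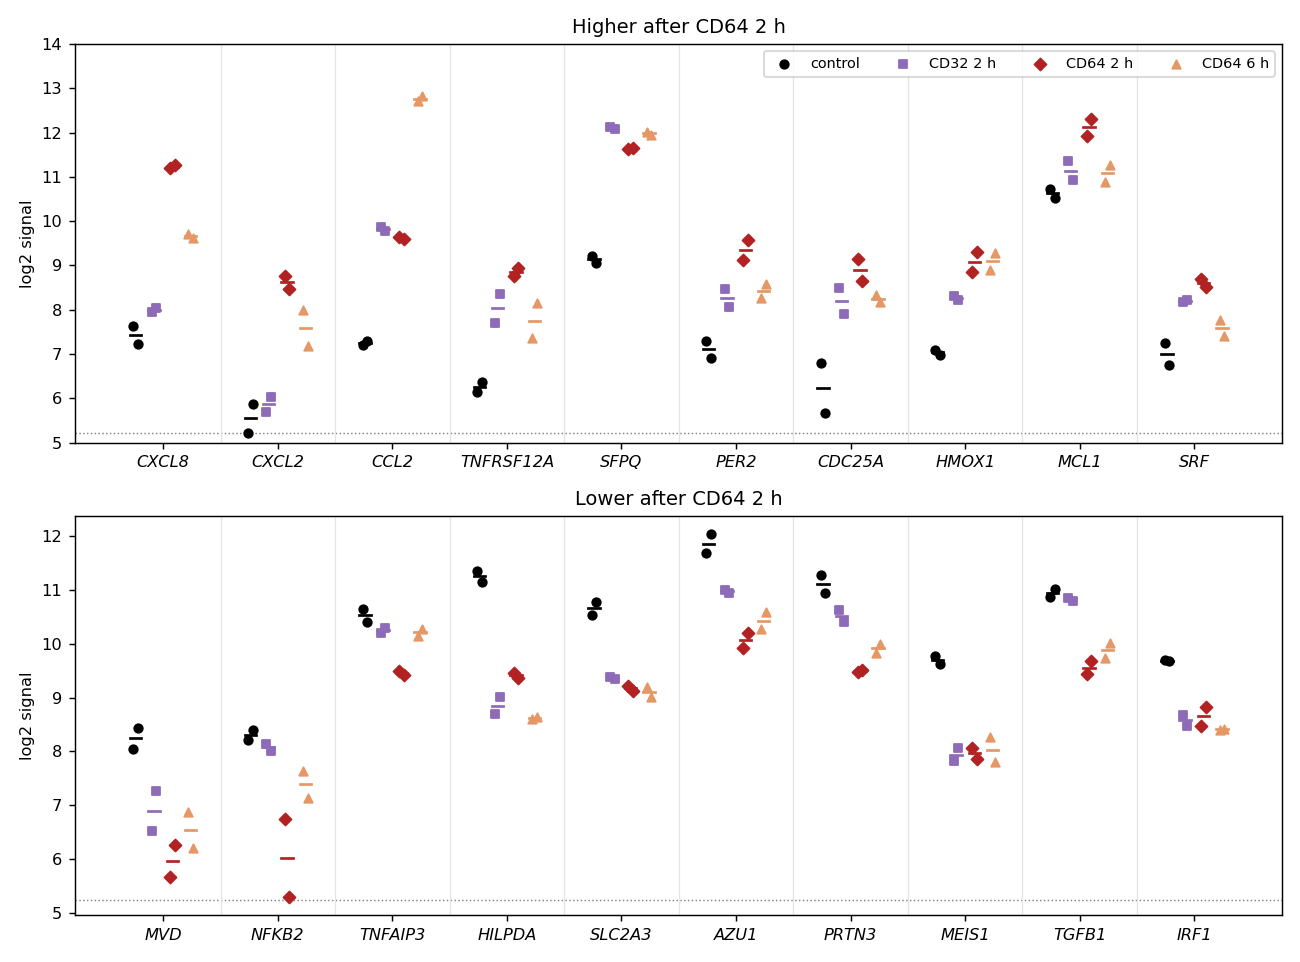
Points are the log2 signals of 20 genes on each of 8 arrays, grouped on the x axis as control, CD32 2 h, CD64 2 h and CD64 6 h, with group means as bars and the floor as a dotted line. CXCL8 stands at 2347 and 2456 in linear signal on the CD64 2 h arrays against 198 and 151 in the control, and MEIS1 at 268 and 233 against 876 and 786.

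Among the other leading upward genes were regulators of the cell cycle, of death and of RNA. TNFRSF12A, the TWEAK receptor Fn14, gave 70.6 and 82.2 on the control arrays and 434 and 492 on the CD64 arrays, a 6.06-fold rise (log2 change 2.60, SE 0.38, limma adjusted p = 0.0010). CDC25A, the phosphatase that activates cyclin-dependent kinases, gave 111 and 51.3 in the control and 566 and 404 after CD64 (log2 change 2.66, SE 0.36, limma adjusted p = 0.00074). SFPQ, a splicing and paraspeckle factor, gave 593 and 536 in the control and 3149.7 and 3219.7 after CD64, with close duplicates and a 5.65-fold rise (log2 change 2.50, SE 0.09, limma adjusted p = 8.3e-08). In each of the 3 genes the lower CD64 array exceeded the higher control by a wide margin. PCF11, a factor of transcript cleavage (2.39), CCNE2, the G1 cyclin E2 (2.08), PTPRE, a tyrosine phosphatase (2.07), TIGAR, a p53 target that lowers glycolytic flux (2.17), TDG, a DNA glycosylase (2.02), TRIM8, a ubiquitin ligase (2.01), and AHR, the aryl hydrocarbon receptor (1.99), rose as well on the log2 scale. PHLDA2, an imprinted growth regulator, was at least 4.97-fold higher.

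Cell cycle genes were called in both directions. Of 24 tested G1 genes 4 rose and 1 was called downward (median log2 change -0.19): CDC25A, CCNE2 and CCND3, the cyclin D3 (0.92), rose together with CDKN1A, the p21 inhibitor of the same kinases. CDKN1A gave 37 and 16.5 on the control arrays, both under the floor, and 118 and 171 on the CD64 arrays, at least 3.79-fold higher (limma adjusted p = 0.00096). CDK4, the partner of cyclin D, was the downward call at -0.41, and its call was lost under 5 of the 13 alternatives (adjusted p = 0.0546 to 0.12), among them without control 2 (0.11), without the first CD64 array (0.10) and without the CD64 duplicate (0.093). Of 42 replication genes 6 were called upward and 8 downward (median -0.03). POLE2, a subunit of polymerase epsilon, had a log2 change of 1.10, and POLD1, the catalytic subunit of polymerase delta, of -1.39. Of 37 mitotic genes 3 (8.1%) were called in each direction, near the shares of all probe sets, 7.64% and 8.24%, with changes under 2-fold (median 0.10), and the number called upward was 1 with any 1 of the 4 arrays left out, 0 without the variance trend and 0 to 1 under 3 other alternatives, and that called downward was 1 without control 2, the first CD64 array or the CD64 duplicate, 0 without the variance trend and 0 to 1 under 2 other alternatives. The number of replication genes called upward was 3 without control 1, and that called downward was 2 without control 1, 1 without control 2 or the first CD64 array, 5 without the CD64 duplicate, 3 without the variance trend and 3 to 4 under 2 other alternatives.

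Regulators of cell death changed in both directions. MCL1, a short-lived survival protein, gave 1682 and 1483 on the control arrays and 3888 and 5080.1 on the CD64 arrays, a 2.81-fold rise (log2 change 1.49, SE 0.17, limma adjusted p = 0.00032). PMAIP1, the death factor NOXA that binds MCL1, rose by 1.03, TNFRSF10B, the death receptor DR5, by 1.30, and CASP8, the caspase below death receptors, by 0.73. Both CD64 arrays exceeded both controls in all 4 genes. BAX, of the BCL2 family (-1.51), and the caspase CASP2 (-1.26) were called downward. Both calls were lost with quantile scaling and in the fit on the 4 arrays alone, among other alternatives. Of 23 tested caspases, death receptors and IAP proteins 3 were called upward and 1 downward (median log2 change 0.20). Of 17 tested BCL2 family genes 4 were called upward and 2 downward (median log2 change -0.22), and the number called upward was 2 without control 1 or the first CD64 array, and that called downward was 0 without control 1, the first CD64 array or the CD64 duplicate, 1 without control 2 and 0 to 1 under 5 other alternatives.

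PER2, a circadian repressor, gave 157 and 121 on the control arrays and 558 and 767 on the CD64 arrays, a 4.75-fold rise (log2 change 2.25, SE 0.25, limma adjusted p = 0.00024). CRY1, another circadian repressor, gave 158 and 77.1 in the control and 508 and 313 after CD64 (log2 change 1.85, SE 0.36, limma adjusted p = 0.0056), and its call was lost without the first CD64 array (adjusted p = 0.071). CIRBP, a cold-inducible RNA-binding protein, rose from 279 and 290.5 to 1088 and 1012 (log2 change 1.88, SE 0.12, limma adjusted p = 1.1e-05). No CD64 array of these 3 genes overlapped a control. No list of circadian genes was tested.

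RNA processing genes split. Of 54 tested splicing factors 8 were called upward and 10 downward (median log2 change -0.08). HNRNPAB, an RNA-binding protein (1.54), and TRA2B, a splicing activator (1.02), rose with SFPQ. CLK3, a kinase of splicing factors (-1.54), HNRNPA0 (-1.14), SF3B3, a subunit of the U2 particle (-0.97), and RBM39 (-0.84) fell. The number of splicing factors called upward was 5 without control 1 and 3 without the variance trend, and that called downward was 6 without the variance trend. Of 41 tested translation factors and tRNA synthetases 9 were called upward and 5 downward (median -0.02). EIF5 (1.54) and EIF2S1, the alpha subunit of eIF2 (0.86), rose, whereas EIF2S3, the gamma subunit of eIF2 (-0.73), and EEF1D, a subunit of an elongation factor (-0.56), fell. In this list the number called upward was 4 without control 1 or the first CD64 array, 3 without the CD64 duplicate or the variance trend and 4 to 5 under 2 other alternatives, and that called downward was 3 without control 2 or the first CD64 array and 8 with quantile scaling.

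Several antioxidant genes rose, in the thioredoxin system and among targets of NRF2. HMOX1, the haem-degrading enzyme, gave 136 and 126 on the control arrays and 465 and 633 on the CD64 arrays, a 4.13-fold rise (log2 change 2.04, SE 0.22, limma adjusted p = 0.00022). TXNRD1, thioredoxin reductase, rose from 890.0 and 1002 to 1792 and 1844 (log2 change 0.94, SE 0.09, limma adjusted p = 0.00011), and its substrate TXN from 4535 and 4679 to 6784 and 6625 (log2 change 0.54, SE 0.09, limma adjusted p = 0.0021). All CD64 arrays of these genes lay above all controls. TXNIP, which inhibits thioredoxin, also rose, from 537 and 487 to 1039 and 1059 (log2 change 1.04, limma adjusted p = 7e-05). Of 13 tested thioredoxin genes 6 were called upward and none downward (median log2 change 0.28). Of 34 NRF2 targets 8 were called upward and 3 downward (median 0.05), with SLC7A11, the cystine transporter (1.47), SQSTM1, the autophagy receptor p62 (1.13), and GCLM, of glutathione synthesis (0.75), among those that rose. Of the thioredoxin genes the number called upward was 3 without the variance trend, and that called downward was 1 without control 2. Of the NRF2 targets the number called downward was 1 without control 1 or control 2 and 0 without the CD64 duplicate or the variance trend.

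Several metallothioneins, small zinc-binding proteins, were called upward. MT1X gave 5565 and 6652 on the control arrays and 9228 and 9655 on the CD64 arrays (log2 change 0.63, SE 0.11, limma adjusted p = 0.0026). MT1H gave 4042 and 3948 in the control and 5948 and 7189 after CD64 (log2 change 0.71, SE 0.11, limma adjusted p = 0.0014), and MT2A 9967 and 10072 in the control and 12911 and 16144 after CD64 (log2 change 0.53, SE 0.11, limma adjusted p = 0.011). Both CD64 arrays lay above both controls in the 3 genes. Some alternatives ended the call, for MT2A under 5 of the 13 alternatives (adjusted p = 0.05017 to 0.078), among them without control 1 (0.068), without control 2 (0.0531) and without the CD64 duplicate (0.078). MT1G (-0.18), MT3 (-0.01) and MTF1, the zinc-sensing factor of these genes (0.18), were not called on the log2 scale, so 3 of 6 tested members passed. The copies of this family are near-identical, and their probe sets may share signal.

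The promoters of MT2A and TXNRD1 are shown for the letters of the elements that zinc and NRF2 are known to act through. They lie at chr16:56608334-56608583 and chr12:104215529-104215778, both on the plus strand of GRCh38.p14, from RefSeq, and capitals mark matches on either strand to the metal motif TGCNCNC in MT2A and to the antioxidant motif TGACNNNGC in TXNRD1.
MT2A: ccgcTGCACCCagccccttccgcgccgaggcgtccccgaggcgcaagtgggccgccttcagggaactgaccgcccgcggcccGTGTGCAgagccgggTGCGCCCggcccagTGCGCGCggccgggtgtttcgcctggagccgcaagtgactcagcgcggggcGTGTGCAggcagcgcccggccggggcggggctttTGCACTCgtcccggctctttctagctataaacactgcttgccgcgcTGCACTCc
TXNRD1: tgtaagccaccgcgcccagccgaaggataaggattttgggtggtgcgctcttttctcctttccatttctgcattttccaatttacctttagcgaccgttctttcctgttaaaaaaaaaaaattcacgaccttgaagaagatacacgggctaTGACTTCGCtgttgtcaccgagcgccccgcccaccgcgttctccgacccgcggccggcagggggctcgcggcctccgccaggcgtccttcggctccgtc
MT2A held 7 metal matches, between 246 and 2 bases before the start, and TXNRD1 held 1 antioxidant match at 99 to 91 bases. The metal motif lay in 58.1% of the windows of genes called upward, 62.9% of those called downward, 55.4% of all tested and 48.4% of the whole table. The antioxidant motif lay in 15.6%, 13.4%, 12% and 11% of the same windows, and its letters can overlap an AP-1 match.

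Other stress responses were covered by 3 lists. Of 23 tested heat shock genes 3 were called upward, with the co-chaperones DNAJA1 (1.03) and HSPH1 (0.96) on the log2 scale, and none downward (median -0.06). Of 19 genes of the unfolded protein response 4 were called upward and 2 downward (median 0.05). XBP1, its transcription factor (1.12), and DNAJB9, an endoplasmic reticulum co-chaperone (0.82), rose. Of 31 genes of the amino acid response 6 were called upward and 5 downward (median -0.01): the transporters SLC38A2 (1.49) and SLC7A5 (0.72) and the pseudokinase TRIB3 (0.86) rose, and AARS1, which charges alanine tRNA (-0.79), PHGDH, the first enzyme of serine synthesis (-0.70), and EIF4EBP1, a translation repressor (-0.96), fell. With quantile or loess scaling 3 heat shock genes were also called downward. By alternative, the number called in the unfolded protein response upward was 2 without control 2, the first CD64 array or the variance trend, and that called downward was 0 without control 1, the CD64 duplicate or the variance trend, 1 without control 2 or the first CD64 array and 1 in the fit on the 4 arrays alone. In the amino acid response the number called downward was 3 without control 2, the first CD64 array or the variance trend and 3 with no filter.

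Several interferon regulatory factors fell. IRF1, a transcription factor that IFN gamma induces, gave 826 and 815 on the control arrays and 353 and 456 on the CD64 arrays, a 2.04-fold fall (log2 change -1.03, SE 0.16, limma adjusted p = 0.0014). IRF7, the amplifier of type I interferon, fell from 888 and 714 to 438 and 369.9 (log2 change -0.98, SE 0.15, limma adjusted p = 0.0015). The CD64 arrays lay below the controls in both genes without overlap. IRF9, a DNA-binding factor of interferon signalling, changed by -0.89 and IRF3, the sensor-activated factor, by -1.04 on the log2 scale, and both were called. IRF4 was called at least 2.53-fold lower, from 107 and 84.5 to 15 and 30.8, and IRF8 (-0.45), IRF2 (-0.46) and IRF5 (-0.61) were not called, so 5 of 8 tested factors passed, all downward, with a median log2 change of -0.94. Among these genes the call was lost for IRF9 without control 1 (adjusted p = 0.058), for IRF3 without control 2 (adjusted p = 0.056) and without the first CD64 array (adjusted p = 0.069), and for IRF4 under 12 of the 13 alternatives (adjusted p = 0.065 to 0.27), among them without control 1 (0.19), without control 2 (0.083), without the first CD64 array (0.17) and without the CD64 duplicate (0.17). With other settings the number called downward was 3 without control 1, control 2 or the first CD64 array.

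Of 51 tested interferon-stimulated genes 6 (11.8%) were called downward, against 8.24% of all probe sets, and none upward, 42 had a change below 0, and the median log2 change was -0.31 against -0.13 for all probe sets. The 6 called downward included IFI6, IFITM2, PSMB8, UBE2L6 and WARS1. All of these named calls were lost without the variance trend, and some under further alternatives. Of 3 tested interferon-induced CXCR3 ligand chemokines only CXCL10 was called, downward from 7291 and 7356 to 5752 and 5974 (log2 change -0.32, limma adjusted p = 0.027). CXCL9, of the same kind, gave 4093 and 3896 in the control and 4035 and 3955 after CD64 and was not called (0.00). A loss of the call was seen for CXCL10 under 6 of the 13 alternatives (adjusted p = 0.070 to 0.15), among them without control 1 (0.072), without control 2 (0.070), without the first CD64 array (0.12) and without the CD64 duplicate (0.072). STAT3, a cytokine signal factor, fell by 0.59 on the log2 scale, while IFNGR1, a chain of the IFN gamma receptor, rose by 0.85. The number of interferon-stimulated genes called downward was 3 without the first CD64 array and 0 without the variance trend.

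Antigen presentation changed in single genes. CD74, the invariant chain of MHC class II, gave 1456 and 1864 on the control arrays and 799 and 888 on the CD64 arrays, a 1.96-fold fall (log2 change -0.97, SE 0.12, limma adjusted p = 0.00051), both CD64 arrays below both controls. TAPBP, which loads peptides onto MHC class I, fell as well (-0.89). Of 14 tested class II genes 1 was called upward and 2 downward (median log2 change -0.19), and the number called upward was 0 with any 1 of the 4 arrays left out, 0 without the variance trend and 0 with no filter, and that called downward was 1 without control 1, control 2 or the CD64 duplicate and 1 under 3 other alternatives. Of 12 class I genes 2 were called downward (median -0.20), and the number called downward was 1 without control 2, the first CD64 array, the CD64 duplicate or the variance trend and 4 with loess scaling.

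Cholesterol synthesis genes formed the most one-sided of the metabolic lists: 11 of 19 tested (57.9%) were called downward and none upward, with a median log2 change of -0.72, against 8.24% of all probe sets called downward. MVD, which forms isopentenyl diphosphate, gave 265 and 345 on the control arrays and 51 and 76.8 on the CD64 arrays, a 4.83-fold fall (log2 change -2.27, SE 0.43, limma adjusted p = 0.0049). MSMO1, a sterol demethylating oxidase, fell from 2311 and 1887 to 1081 and 893 (log2 change -1.09, SE 0.14, limma adjusted p = 0.00045), and LSS, lanosterol synthase, from 2589 and 2902 to 1652 and 1397 (log2 change -0.85, SE 0.13, limma adjusted p = 0.0013). The CD64 arrays of the 3 genes lay below the controls without overlap. INSIG1, the sterol sensor that retains the SREBP complex (-0.80), and SC5D, a desaturase (-0.82), fell too. SREBF2, the master factor of the pathway, was called downward, from 526 and 416 to 315 and 236 (log2 change -0.78, limma adjusted p = 0.026). The call was lost for SREBF2 under 7 of the 13 alternatives (adjusted p = 0.0512 to 0.18), among them without control 1 (0.16) and without the CD64 duplicate (0.18). The number called upward was 1 without control 2, and that called downward was 7 without the first CD64 array and 6 without the variance trend.

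SREBF2 was the only cholesterol gene, of 18 with a window, to hold the sterol motif TCACNCCAC in it, and its 250 bases are shown for that reason, from RefSeq at chr22:41832855-41833104 on the plus strand of GRCh38.p14, with the match in capitals.
SREBF2: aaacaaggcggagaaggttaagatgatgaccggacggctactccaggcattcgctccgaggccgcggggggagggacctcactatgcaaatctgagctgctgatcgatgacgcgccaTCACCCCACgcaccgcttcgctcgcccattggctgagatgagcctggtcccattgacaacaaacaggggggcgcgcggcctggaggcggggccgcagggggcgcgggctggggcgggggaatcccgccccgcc
The match lay 133 to 125 bases before the start. The motif was rare, in 0.8% of all tested windows, 0.4% of those of genes called upward, 0.7% of those called downward and 0.9% of the whole table.

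Fatty acid genes had 4 of 11 tested called downward and 1 upward (median log2 change -0.32). FASN, fatty acid synthase, gave 532 and 516 on the control arrays and 209 and 200.1 on the CD64 arrays (log2 change -1.36, SE 0.20, limma adjusted p = 0.0012), whereas ACSL1, which activates long-chain fatty acids, rose from 814 and 755 to 1582 and 1601 (log2 change 1.02, SE 0.13, limma adjusted p = 0.00057). Neither gene had overlapping groups. A second probe set of ACSL1 gave a log2 change of 0.39 and was not called (limma adjusted p = 0.078). Across alternatives the number called downward was 1 without control 1, 2 without the first CD64 array, the CD64 duplicate or the variance trend and 2 in the fit on the 4 arrays alone, and the median was -0.06 without control 1, -0.17 with quantile scaling and -0.17 with loess scaling.

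Of 23 tested genes of glucose uptake and glycolysis 11 were called downward and 1 upward (median log2 change -0.47). SLC2A3, the glucose transporter GLUT3, gave 1482 and 1759 on the control arrays and 597 and 560.3 on the CD64 arrays, a 2.79-fold fall (log2 change -1.48, SE 0.14, limma adjusted p = 9.4e-05). HK2, hexokinase 2, fell from 2489 and 2081 to 1271 and 1019 (log2 change -1.0, SE 0.16, limma adjusted p = 0.0021). PFKL, the liver phosphofructokinase (-1.23 on the log2 scale), and PDK1, which closes off pyruvate oxidation (-0.64), fell too. PKM, pyruvate kinase, was called at -0.66, with 4512 and 5825 in the control and 3118 and 3363 after CD64, and PFKFB3, which makes an activator of phosphofructokinase, was the upward call, from 389 and 238 to 812 and 693 (1.30). The arrays of these genes did not overlap between groups. Some alternatives ended the call, for PKM without the variance trend (adjusted p = 0.0544) and without the first CD64 array (adjusted p = 0.0538), and for PFKFB3 under 3 of the 13 alternatives (adjusted p = 0.0524 to 0.068), among them without control 2 (0.065) and without the first CD64 array (0.068). By alternative, the number called upward was 0 without control 2 or the first CD64 array and 0 with no filter, and that called downward was 6 without the variance trend.

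Of 21 further hypoxia-inducible genes 3 were called upward and 5 downward (median log2 change -0.31). HILPDA, a lipid droplet protein, gave 2619 and 2282 on the control arrays and 706 and 662 on the CD64 arrays, a 3.58-fold fall (log2 change -1.84, SE 0.16, limma adjusted p = 5.4e-05), and the repressor BHLHE40 fell by 0.77 on the log2 scale. TFRC, the transferrin receptor, rose by 0.66. The hypoxia motif ACGTG, which is part of the E-box CACGTG, lay in 24.5% of the windows of genes called upward and 25.5% of those called downward, against 21.3% of all tested and 18.7% of the table, and the E-box in 10.5%, 11.9%, 8.2% and 6.5%. With other settings the number called upward was 1 without the first CD64 array or the CD64 duplicate and 1 in the fit on the 4 arrays alone, and that called downward was 3 without control 1, control 2 or the CD64 duplicate, 2 without the first CD64 array or the variance trend and 2 in the fit on the 4 arrays alone. The median was -0.16 without control 1.

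**Figure D3:**
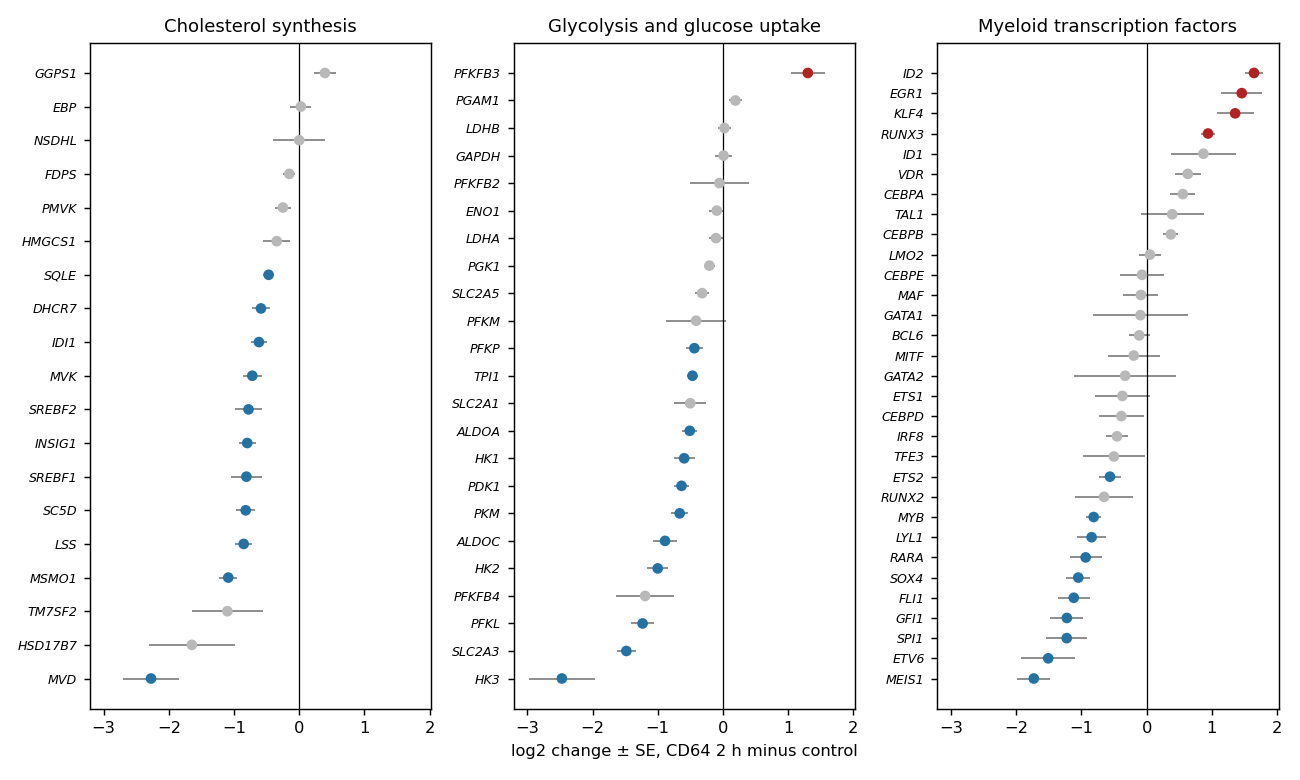
The log2 change from control to CD64 at 2 h is plotted with its standard error for each tested member of the cholesterol, glycolysis and myeloid transcription factor lists, red where called upward, blue where called downward and grey where not called. In the cholesterol list 11 of 19 genes are blue, with MVD lowest at -2.27, and in the glycolysis list 11 of 23 are blue.

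Some granule proteins of immature myeloid cells were among the large falls. AZU1, azurocidin of primary granules, gave 3304 and 4192 on the control arrays and 974 and 1169.7 on the CD64 arrays, a 3.49-fold fall (log2 change -1.80, SE 0.15, limma adjusted p = 4.9e-05). PRTN3, proteinase 3, fell from 2493 and 1980.5 to 715 and 733 (log2 change -1.62, SE 0.13, limma adjusted p = 4.9e-05), and ELANE, neutrophil elastase (-0.68 on the log2 scale), fell too. The CD64 arrays of AZU1 and PRTN3 lay far below both controls. Of 12 tested granule genes (median log2 change -0.19) these 3 were the downward calls and SERPINB1, an inhibitor of the proteases PRTN3 and ELANE, the upward call (0.57). Among these genes the call was lost for SERPINB1 under 7 of the 13 alternatives (adjusted p = 0.063 to 0.22), among them without control 1 (0.22), without control 2 (0.10), without the first CD64 array (0.20) and without the CD64 duplicate (0.13).

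Myeloid and progenitor transcription factors had 10 of 31 tested genes called downward and 4 upward (median log2 change -0.33). MEIS1, a homeobox factor of progenitors, gave 876 and 786 on the control arrays and 268 and 233 on the CD64 arrays, a 3.32-fold fall (log2 change -1.73, SE 0.25, limma adjusted p = 0.0011). MYB, which keeps progenitors dividing, fell from 5437 and 5102 to 2816 and 3198 (log2 change -0.81, SE 0.12, limma adjusted p = 0.0010). Neither gene had overlapping groups. SOX4 fell by 1.05 and RUNX3 rose by 0.94 on the log2 scale. SPI1, the PU.1 factor of monocytes, was called from 189 and 357 to 98.2 and 126 (-1.23), and this call was lost under 7 of the 13 alternatives (adjusted p = 0.0550 to 0.13), among them without control 2 (0.11), without the first CD64 array (0.13) and without the CD64 duplicate (0.0550). The number called upward was 7 with a pseudocount in place of the floor, and that called downward was 6 without control 1, 4 without control 2, 5 without the first CD64 array, 3 without the CD64 duplicate and 5 to 6 under 4 other alternatives. The median of the list was 0.02 without control 1, -0.16 without the CD64 duplicate, -0.06 with quantile scaling and -0.04 with loess scaling.

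Macrophage markers moved both ways, with 6 of 39 tested called upward and 5 downward (median log2 change 0.00). S100A8, a calprotectin subunit (1.56), and PECAM1, the adhesion molecule CD31 (0.91), rose, and CHI3L1, a chitinase-like protein (-1.18), CD4 (-0.87) and the protease CTSD (-0.83) fell on the log2 scale. Across alternatives the number called upward was 3 without the first CD64 array or the CD64 duplicate. Of 48 lysosomal genes 3 were called upward and 8 downward (median 0.00), with GAA, acid glucosidase (-1.12), and PSAP, the saposin precursor (-0.60), among those that fell and ATP6V0E1, of the proton pump (0.70), among those that rose. The number of lysosomal genes called upward was 1 without the variance trend and 5 under 2 other alternatives, and that called downward was 5 without control 2, 3 without the first CD64 array, 4 without the variance trend and 4 in the fit on the 4 arrays alone.

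Adhesion molecules were called in 9 of 29 tested genes, 3 upward and 6 downward (median log2 change -0.26, but -0.09 without control 1, -0.04 without the CD64 duplicate, -0.10 with quantile scaling and -0.12 with loess scaling). CD58, the ligand of CD2 on T cells, gave 134 and 119.6 on the control arrays and 489 and 485 on the CD64 arrays (log2 change 1.95, SE 0.16, limma adjusted p = 5.2e-05), and CD47, the signal that protects from phagocytosis, rose by 1.05 on the log2 scale. ITGB2, the common beta 2 integrin chain, fell from 5921 and 5899.7 to 3214 and 3640.0 (log2 change -0.79, SE 0.11, limma adjusted p = 0.00099), and ICAM1, its ligand, from 1091 and 958 to 596 and 583 (log2 change -0.80, SE 0.11, limma adjusted p = 0.00078). The groups did not overlap in CD58, ITGB2 or ICAM1. CD37, a tetraspanin (-1.18), and SELPLG, the selectin ligand PSGL-1 (-0.76), fell too. Among other surface receptors CD55, which stops complement (1.71), and the oxysterol receptor GPR183 (1.07) rose, and IL2RG, the common gamma cytokine receptor chain (-1.12), and the chemokine receptor CXCR4 (-0.67) fell. GPR183 and CXCR4 were the only calls among 25 tested chemoattractant receptors, 4.0% in each direction, below the 7.64% and 8.24% of all probe sets. Of 29 tested cytokine receptor chains 2 (6.9%) were called upward and 4 (13.8%) downward (median -0.05).

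**Figure D4:**
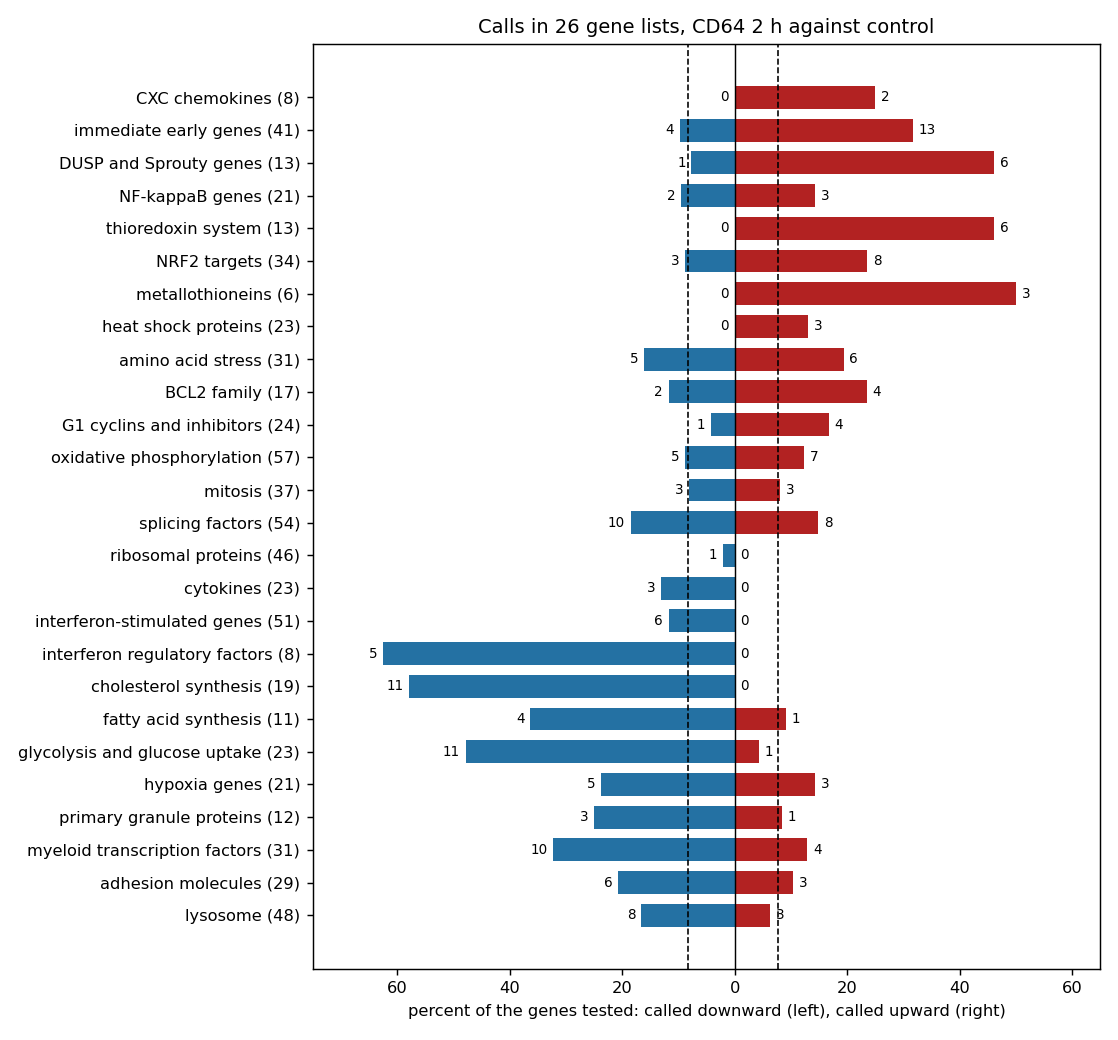
For each gene list the percentage of tested genes called upward and downward from control to CD64 at 2 h is drawn as bars, with dashed lines at 7.64% and 8.24%, the shares of all probe sets. Cholesterol synthesis, interferon regulatory factors and glycolysis reach furthest on the downward side, with 11 of 19, 5 of 8 and 11 of 23 genes.

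The energy genes of the mitochondrion were called in both directions. Of 57 tested oxidative phosphorylation genes 7 (12.3%) were called upward and 5 (8.8%) downward, against 7.64% and 8.24% of all probe sets (median log2 change 0.15). ATP5F1C, the gamma subunit of ATP synthase, gave 475 and 485 on the control arrays and 104 and 80.9 on the CD64 arrays (log2 change -2.39, SE 0.41, limma adjusted p = 0.0028), among the largest falls, while NDUFA6, of complex I, rose by 0.98. Of 33 proteasome genes 6 were called upward and 3 downward (median 0.05), with PSMD12, of the regulatory particle, at 0.95. Of 46 ribosomal protein genes, which have many near-identical copies, only RPL38 was called (-1.06, median of the list 0.11), and that call was lost under 5 of the 13 alternatives (adjusted p = 0.065 to 0.13), among them without control 1 (0.076), without control 2 (0.11) and without the first CD64 array (0.13). The number of oxidative phosphorylation genes called upward was 3 without control 1 or the first CD64 array, 4 without the CD64 duplicate, 2 without the variance trend and 4 under 2 other alternatives, and that called downward was 3 without control 1 or the CD64 duplicate, 2 without control 2, the first CD64 array or the variance trend and 3 in the fit on the 4 arrays alone. The number of proteasome genes called upward was 2 without control 1 or the first CD64 array, 3 without control 2 or the CD64 duplicate and 1 without the variance trend, and that called downward was 1 without the first CD64 array or the variance trend and 1 in the fit on the 4 arrays alone.

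Some of the largest changes lay outside these lists. IGFBP2, a binding protein of insulin-like growth factors, gave 746 and 746 on the control arrays and 146 and 246 on the CD64 arrays (log2 change -1.98, SE 0.30, limma adjusted p = 0.0012). STXBP2, a Munc18 protein of granule release, fell from 583 and 659 to 174 and 198 (log2 change -1.74, SE 0.28, limma adjusted p = 0.0018). Neither gene had overlapping groups. JUP, the junction protein plakoglobin (-2.15), and DEAF1, a transcription factor (-1.86), also fell on the log2 scale. CDK10, a cyclin-dependent kinase, was at least 4.53-fold lower, and SUGP2, a protein with splicing factor domains, at least 4.56-fold lower. On the upward side were STK17A, a kinase linked to cell death (1.84), NAT1, an arylamine acetyltransferase (1.77), and PPP1R10, a nuclear partner of a protein phosphatase (1.76).

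CD64 and CD32 were also compared directly at 2 h. Of 7708 probe sets 1256 (16.3%) differed between CD64 and CD32 at 2 h, 529 (6.86%) higher and 727 (9.43%) lower after CD64. The median log2 difference over all probe sets was -0.11. The count was 699 and 586 without the first CD32 array and its duplicate, 690 and 770 without the first CD64 array and its duplicate, 830 without the variance trend and 302 in a fit on these 4 arrays with the filter over all 10. This comparison shares its CD64 arrays with the one against control, so the values are given side by side. The spike-in mean was 10.87 after CD64 and 11.25 after CD32, and the actin ratio 1.81 and 1.56. The median signal, averaged over the arrays of a group, was 107.15 and 127.6. The part of these differences was not tested, and list counts of CD64 against CD32 were not repeated under other scaling. Of the 589 probe sets called upward against control 206 (35.0%) were also higher than in CD32, 48 (8.1%) were lower and 335 gave no call. Of the 635 called downward 264 (41.6%) were lower, 18 (2.8%) higher and 353 gave no call.

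CXCL8 gave 247 and 262 on the CD32 2 h arrays, a log2 difference of 3.24 in favour of CD64 (limma adjusted p = 2.1e-06), and CXCL2 gave 52.1 and 65.8 there (log2 difference 2.75, limma adjusted p = 0.0012). In both genes every CD64 array exceeded every CD32 array, while 55.8% of all probe sets tested had no overlap between these groups. CCL2 gave 936 and 877 after CD32, above both CD64 arrays, a log2 difference of -0.20 (limma adjusted p = 0.49). CDKN1A gave 323 and 461 after CD32, higher than after CD64 (-1.44, limma adjusted p = 0.0048), and TXNIP 3708 and 3555 (-1.79, limma adjusted p = 5.5e-06). MT1X gave 5484 and 5378 after CD32, lower than after CD64 (0.80, limma adjusted p = 0.00073). Of the 51 interferon-stimulated genes 3 were higher and 27 lower after CD64 than after CD32 (median log2 difference -0.63). Of 31 amino acid response genes 1 was higher and 19 lower (-0.62), of 37 mitotic genes 20 were higher and none lower (0.49), and of 57 oxidative phosphorylation genes 27 were higher and none lower (0.40). Of lists with many downward calls against control, glycolysis had 2 of 23 genes higher and 2 lower (-0.02). Myeloid transcription factors had 3 of 31 higher and 5 lower (0.03), and granule genes 1 of 12 higher and 2 lower (0.00). Cholesterol genes had 2 of 19 higher and 5 lower (-0.35), and interferon regulatory factors 1 of 8 higher and 3 lower (-0.61).

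Between 2 h and 6 h of CD64 cross-linking 1065 probe sets (13.8%) differed, 583 (7.56%) higher and 482 (6.25%) lower at 6 h. The median log2 difference over all probe sets was 0.09. The count was 602 and 568 without the first 2 h array and its duplicate, 492 and 455 without the first 6 h array and its duplicate, 579 without the variance trend and 3 in a fit on these 4 arrays with the filter over all 10. The comparison shares the CD64 2 h arrays, and the spike-in mean was 10.87 at 2 h and 9.32 at 6 h and the actin ratio 1.81 and 1.12, whose part was not tested. Of the 589 probe sets called upward at 2 h 130 (22.1%) were lower at 6 h, 67 (11.4%) higher and 392 gave no call. Of the 635 called downward 141 (22.2%) were higher at 6 h, 36 (5.7%) lower and 458 gave no call.

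CXCL8 gave 833 and 786 on the 6 h arrays, below both 2 h arrays but above both controls (log2 difference to 2 h -1.57, limma adjusted p = 9.8e-05). CCL2 gave 6684 and 7226 at 6 h, far above the 2 h arrays (log2 difference 3.14, limma adjusted p = 9.6e-07). The metallothionein MT1X gave 6262 and 7042 at 6 h (-0.51, limma adjusted p = 0.0097), below both 2 h arrays. IRF7 gave 1203 and 1306 at 6 h, above the 2 h arrays and the controls (1.64, limma adjusted p = 9.8e-05), and 33 of 51 interferon-stimulated genes were higher at 6 h than at 2 h and none lower (median log2 difference 0.99). IFIT1, an RNA-binding antiviral protein, had the largest of these differences at 4.62 (limma adjusted p = 3.2e-07), from 147 and 196 to 4416 and 3934. Of 37 mitotic genes 22 were lower at 6 h and none higher (median -0.53), and of 46 ribosomal protein genes 41 were lower and none higher (-0.74). The highest signal on each array was 28377.9 and 32330.1 at 2 h and 14536.1 and 15867.5 at 6 h. The summed signal of the ribosomal protein genes was 732120 and 799369 at 2 h and 433654 and 484250 at 6 h. The part of this difference at the top of the scale was not tested. List counts from 2 h to 6 h were not repeated under other scaling.

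**Figure D5:**
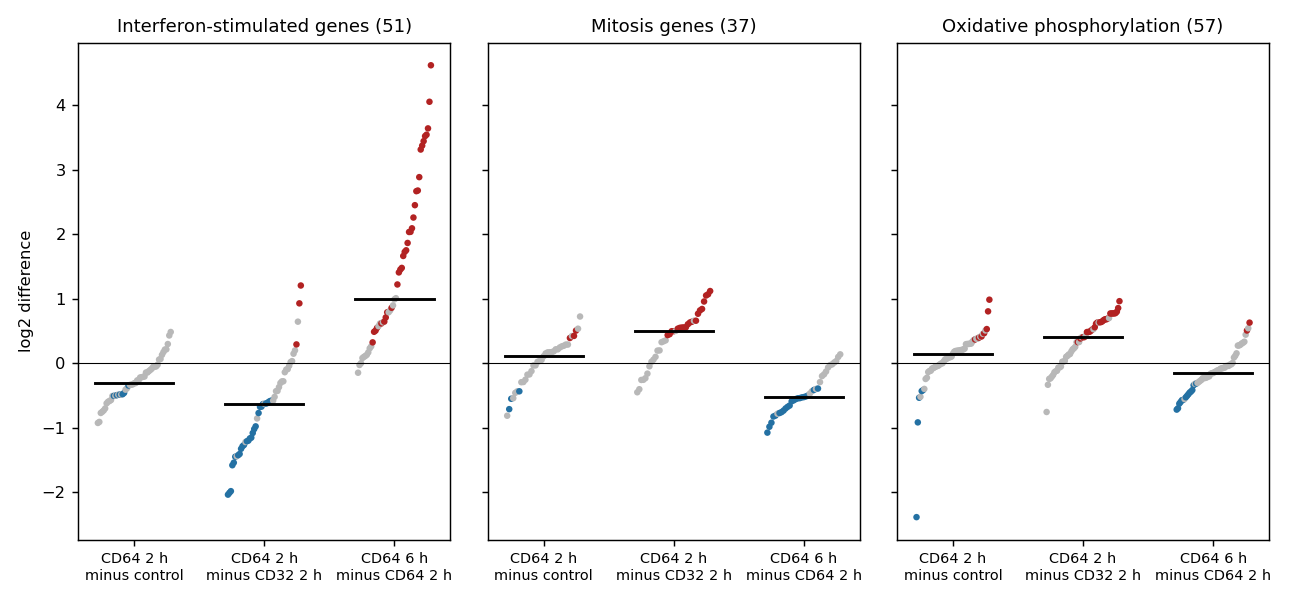
Points are the log2 differences of the interferon-stimulated, mitotic and oxidative phosphorylation genes in CD64 2 h against control, CD64 2 h against CD32 2 h and CD64 6 h against CD64 2 h, with the median as a black line. The comparisons share arrays, and the interferon-stimulated genes lie at a median of -0.31 against control, -0.63 against CD32 and 0.99 from 2 h to 6 h.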

How the data were processed

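RNA of IFN gamma differentiated U937 cells was measured on 10 arrays in 5 groups of 2, and groups were taken from the titles. The authors deposited a linear intensity for each of 8793 probe sets, 47 of them controls. The trimmed mean (2% at each end) was alike on all arrays, so the values had been scaled before deposit, with software not given in the sources used here. Such scaling makes every change relative to the whole array. Symbols came from GEO's platform annotation: of 8746 other probe sets 7840 had 1 symbol, 388 several and 518 none, and a probe set with several is not named.

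Signals under 37.5 (percentile 25) were set to that floor, log2 was taken, and the 7708 probe sets above it on at least 2 arrays (6814 genes) were fitted with limma 3.58.1 in R 4.3.3, with 1 mean per group over 10 arrays and a variance trend (5 residual and 5.65 prior degrees of freedom). Tests were two-sided, adjusted by Benjamini and Hochberg over all probe sets, and called under 0.05. Where a gene had several probe sets, the brightest on average stood for it in the counts of genes and lists. The 25 highest and 25 lowest named genes were picked from all called probe sets, so a dimmer probe set could lead a gene. The fit was also run on simulated log2 values with independent normal errors. These had no floor and no differences of scale between arrays, so that run does not cover either feature.

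The comparison, its lists and its named genes were chosen with earlier results of these data known. Named were the 25 highest and 25 lowest called genes without overlap of the arrays, up to 5 called members of each list, all members of 4 lists, and further list members where a list is described. Genes on chromosome Y and XIST were left out. The 13 alternatives were quantile and loess scaling, floors at percentiles 15 and 40, a pseudocount of 50 with no floor, no filter, a stricter filter, no variance trend, a fit on the 4 arrays alone, and each of these arrays left out. Promoter windows came from RefSeq, build GRCh38.p14. No motif or list was tested for enrichment.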

Additional observations from a re-analysis of the deposited data

Results flagged for a closer look

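The 7 results here stood out because CD64 and CD32 cross-linking for 2 h moved a gene in opposite directions from the control. Both comparisons share the control arrays, so the value given is the direct difference between the CD64 and CD32 arrays, fitted with limma and adjusted over all probe sets. The genes were picked on these same arrays, so a direct difference follows in part from the choice. Its p-value does not test the change after CD32 against control. That log2 change was 0.69 for CD74, 0.94 for STAT3, 0.635 for CHI3L1 and 0.90 for CYBB. It was 0.49 for SC5D, 0.30 for CXCL10 and -1.02 for SEPHS2.

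CD74, the invariant chain of MHC class II, gave 1456 and 1864 on the control arrays, 2608 and 2716 after CD32 and 799 and 888 after CD64, a difference of CD64 minus CD32 of -1.66 (SE 0.12, limma adjusted p = 3.3e-05). STAT3, a cytokine signal factor, gave 908 and 839 in the control, 1582 and 1782 after CD32 and 594 and 562 after CD64 (log2 difference -1.54, SE 0.11, limma adjusted p = 3.3e-05). CHI3L1, a chitinase-like macrophage protein, gave 536 and 456 in the control, 816 and 724 after CD32 and 242 and 196 after CD64 (log2 difference -1.82, SE 0.16, limma adjusted p = 5.7e-05). In these 3 genes the arrays of the groups did not overlap, with CD32 highest and CD64 lowest. This is a description, as the CD64 and CD32 arrays did not overlap in 55.8% of all probe sets tested.

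CYBB, the catalytic subunit of the phagocyte oxidase, gave 596 and 526 on the control arrays, 1035 and 1054 after CD32 and 392 and 333 after CD64 (log2 difference -1.53, SE 0.16, limma adjusted p = 0.00016). SC5D, of cholesterol synthesis, gave 642 and 868 in the control, 1073 and 1020.3 after CD32 and 424 and 421 after CD64 (log2 difference -1.31, SE 0.15, limma adjusted p = 0.00028). CXCL10, the interferon-induced chemokine, gave 7291 and 7356 in the control, 8758 and 9235 after CD32 and 5752 and 5974 after CD64 (log2 difference -0.62, SE 0.09, limma adjusted p = 0.00088). SEPHS2, which makes the selenium donor of selenoproteins, went the other way, with 884 and 988 in the control, 569 and 372 after CD32 and 1968 and 1779 after CD64 (log2 difference 2.02, SE 0.18, limma adjusted p = 6.6e-05), CD64 highest and CD32 lowest. Against control alone, the call after CD64 was lost for CYBB under 6 of the 13 alternatives (adjusted p = 0.0526 to 0.14), among them without control 1 (0.14), without control 2 (0.0526) and without the CD64 duplicate (0.14), for SEPHS2 without control 1 (adjusted p = 0.0514), and for CXCL10 under 6 of the 13 alternatives (adjusted p = 0.070 to 0.15), among them without control 1 (0.072), without control 2 (0.070), without the first CD64 array (0.12) and without the CD64 duplicate (0.072).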

How the results depend on the processing

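The number of probe sets called against control was 725 without the variance trend, 767 in the fit on the 4 arrays alone and 642 to 988 with 1 array left out, and 997 to 1355 under the other alternatives listed with the methods. In an alternative chosen after seeing the data, the 4 arrays alone with the filter over all 10, limma called 0, with 1750 probe sets at an unadjusted p under 0.05. Against CD32 at 2 h the count was 830 without the trend, 302 under that added alternative and 586 to 770 with 1 array left out, and from 2 h to 6 h it was 579, 3 and 455 to 602. The upward share of calls was 48.1%, 52.1% with quantile and 53.3% with loess scaling, which moved the median log2 change from -0.13 to 0.00 and 0.02. Of 233 named genes with a call, 115 kept it under all 13 alternatives and 118 lost it under at least 1, and none of the 233 changed direction, by their own probe set. The cause was not tested.

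The genes that changed sign had no call, apart from NACA, whose probe set called downward has a second one at 0.066. With quantile scaling the log2 change was CTNNBIP1 0.085, FCGR3B 0.091, HSPA6 0.062, IFI44 0.040, LAMB3 0.046, MT3 0.19. With loess scaling the log2 change was CTNNBIP1 0.18, CXCL5 0.16, FCGR3B 0.12, HSPA6 0.21, LAMB3 0.19, MT3 0.33. With the lower floor the log2 change was LAMB3 0.053. With the higher floor the log2 change was IFI44L -0.000. With 1 array left out it ranged for CX3CR1 -0.15 to 0.28, CXCL1 -0.043 to 1.20, CXCL6 -0.15 to 0.73, FCGR3B -1.14 to 0.79, GRM8 -0.14 to 0.83, H1-2 -0.29 to 0.62, HSPA6 -0.092 to 0.073, IFI44L -0.095 to 0.69, IRF2 -1.03 to 0.12, ISG15 -0.19 to 0.44, LAMB3 -0.52 to 0.24, MT3 -0.60 to 0.58, MTF1 -0.38 to 0.73, PF4 -0.35 to 1.34, TNFAIP6 -0.15 to 0.91, TREM1 -0.39 to 1.04. With 2 arrays per group the test leaned on a spread pooled over all 10 arrays, and signals near the floor carry little information. No paired analysis was possible because the labels number only the controls and call the other arrays duplicates.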

Other observations

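Further lists changed in single members. Of 7 tested subunits and regulators of the phagocyte NADPH oxidase 2 were called upward and 3 downward (median log2 change -0.17), and the number called upward was 1 without control 1, the first CD64 array, the CD64 duplicate or the variance trend, and that called downward was 1 without control 1 or the first CD64 array, 0 without control 2 or the variance trend and 1 under 2 other alternatives. RAP1A, a small GTPase found with the oxidase, rose by 0.64 on the log2 scale, while CYBA, the p22 subunit, was called from 1394 and 1606 to 847 and 1082 (-0.64). The call was lost for CYBA under 3 of the 13 alternatives (adjusted p = 0.0534 to 0.0541), among them without control 2 (0.0538) and without the first CD64 array (0.0534). Of 21 complement genes 3 were called upward and 3 downward (median -0.13), and the number called upward was 1 without control 1, the first CD64 array, the CD64 duplicate or the variance trend and 1 under 3 other alternatives, and that called downward was 1 without control 1 or the variance trend, 0 without the first CD64 array or the CD64 duplicate and 1 in the fit on the 4 arrays alone. CFB, factor B of the alternative pathway, was at least 2.6-fold lower, from 106 and 90.3 to 12.5 and 29.5. Some alternatives ended the call, for CFB under 4 of the 13 alternatives (adjusted p = 0.069 to 0.14), among them without the first CD64 array (0.072) and without the CD64 duplicate (0.069). Of 29 genes of matrix proteolysis and coagulation 2 were called upward and 3 downward, with the gelatinase MMP2 (-0.82) and the protease inhibitor SERPINA1 (-0.98) among those that fell. The shares called among the 29 genes, 6.9% and 10.3%, lay near those of all probe sets, 7.64% and 8.24%. Of these genes the number called upward was 1 without control 2, the CD64 duplicate or the variance trend, 0 without the first CD64 array and 1 under 2 other alternatives, and that called downward was 5 with no filter. Of 16 Toll-like receptor genes 2 were called upward and none downward, and the number called upward was 0 without control 1, the first CD64 array or the CD64 duplicate, 1 without control 2 or the variance trend and 1 under 4 other alternatives, and that called downward was 1 under 2 other alternatives. TLR4, the lipopolysaccharide receptor, was one of them, from 175 and 189 to 289 and 333 (0.77), and its call was lost under 4 of the 13 alternatives (adjusted p = 0.0525 to 0.12), among them without control 1 (0.076), without the first CD64 array (0.0525) and without the CD64 duplicate (0.12).

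Of 108 genes measured by several probe sets, 2 had probe sets called in opposite directions. These values are descriptions of the deposited signals, with no cause tested.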
